A study of Homo sapiens with 9 samples.

Results

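The TAM receptors TYRO3, AXL and MERTK and their ligands GAS6 and PROS1 were followed across MDA-MB-231 cells that carried a hairpin against Coco or a control hairpin. The genes were taken by name, as every probe set whose platform annotation gives 1 of these 5 symbols, and the set was chosen on the values of AXL, which was already known to be lower in cells with the shco4 hairpin than in cells with the scramble hairpin. This gave 10 probe sets of 22215 that are not controls, and 5 genes of 11963 symbols: 2 probe sets for AXL, 2 for TYRO3, 3 for MERTK, 2 for GAS6 and 1 for PROS1. All AXL values below are therefore a description without a test. The other 4 genes came in as relatives or ligands of AXL and were tested.

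MDA-MB-231 is an established breast cancer line without estrogen receptor and with a mesenchymal phenotype. The 3 groups of 3 arrays each were cells stably transduced with the pLKO lentiviral hairpin shco4 (Coco shRNA #4), with shco2 (Coco shRNA #2), or with a control hairpin, scramble, and all grew in DMEM with 10% fetal bovine serum. Coco is the secreted antagonist of BMP, Nodal and activin ligands encoded by DAND5. The labels call the arrays of a group biological replicates without saying whether they came from separate transductions, so the tests measure the spread between these samples, and each group stands for 1 hairpin.

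TAM receptors are receptor tyrosine kinases with immunoglobulin-like and fibronectin-like domains outside the cell. GAS6 and protein S, the product of PROS1, are vitamin K-dependent proteins: their gamma-carboxylated end binds phosphatidylserine on membranes, and the other end binds the receptor. GAS6 binds AXL, TYRO3 and MERTK, whereas protein S binds TYRO3 and MERTK and also serves as an anticoagulant cofactor. MERTK is best known for the uptake of dying cells by macrophages, and AXL is a known feature of mesenchymal and invasive breast cancer lines.

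Coco itself could not be checked, because 0 probe sets carried the symbol DAND5 here. Median intensity was 122 to 130 on the 9 arrays. Of 7 markers of the line, VIM, CD44, CAV1, MSN, LDHB and KRT18 read 1931 or more on every array, whereas SPARC read 4.44 to 38.9. Of the genes known to be low in this line, GATA3 went against its listing, with a mean of 612 with shco4, 456 with shco2 and 617 in scramble. The epithelial cadherin CDH1 averaged 212 with shco4, 38.6 with shco2 and 96.6 in scramble, and 11 luminal epithelial markers summed to 6413 to 6883, 3477 to 3756 and 6275 to 7686 in the same order of lines; their part in the results was not tested. Of 9 macrophage markers with a probe set, 7 were under 100 on every array. The 9 summed to 306 to 457 with shco4, 227 to 230 with shco2 and 235 to 352 in scramble. The marker with the widest difference was CD14, at 161 with shco4, 56.5 with shco2 and 57.2 in scramble. CSF1R averaged lower with shco4 than in scramble (63.7 against 111). All 5 endothelial markers and 6 of 8 fibroblast markers were under 100 on every array. The fibroblast sum was 503 to 608 with shco4, 305 to 358 with shco2 and 290 to 374 in scramble, and LUM, the proteoglycan lumican, averaged 221, 8.48 and 20.8 in these lines. The shco4 arrays were thus highest in this sum, as in GAS6 and PROS1 below, and LUM was the marker with the widest difference. Of the other fibroblast markers, COL1A1 averaged higher with shco4 than in scramble (206 against 167). PDGFRB (50.5 against 60.2) and the dim THY1 (16.9 against 24.5) averaged lower, and DCN was nearly equal (38.6 against 39.0). FAP, PDGFRA and COL3A1 averaged under 16, the floor used here, in both lines and gave no usable direction. The part of these markers in the GAS6 and PROS1 results was not tested. The ratio of 3′ to 5′ signal of ACTB, a sign of RNA integrity, was 1.13 ± 0.00857 with shco4, 1.10 ± 0.0153 with shco2 and 1.08 ± 0.0155 in scramble (SD, n = 3 each). That of GAPDH was lowest with shco4, at 0.892 ± 0.0108, against 0.914 ± 0.032 with shco2 and 0.899 ± 0.0507 in scramble. The part of these ratios in the results was not tested. In bulk RNA, fewer cells that express a gene and less RNA per cell cannot be told apart.

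The sequence around the start sites is shown for a pair of receptors and the pair of ligands, which differed from shco2 cells in opposite directions in shco4 cells. Each run is the RefSeq promoter window in GRCh38.p14, 250 bases before to 50 after a start, 5′ to 3′ on the strand of the gene. Capitals mark the GC box letters GGGCGG or their reverse complement CCGCCC, the core of the sites bound by SP1 and SP3, which are known regulators of AXL. The windows are chr19:41218973-41219272 (plus strand) for AXL, chr2:111898357-111898656 (plus) for MERTK, chr13:113864027-113864326 (minus) for GAS6 and chr3:93973847-93974146 (minus) for PROS1.
AXL: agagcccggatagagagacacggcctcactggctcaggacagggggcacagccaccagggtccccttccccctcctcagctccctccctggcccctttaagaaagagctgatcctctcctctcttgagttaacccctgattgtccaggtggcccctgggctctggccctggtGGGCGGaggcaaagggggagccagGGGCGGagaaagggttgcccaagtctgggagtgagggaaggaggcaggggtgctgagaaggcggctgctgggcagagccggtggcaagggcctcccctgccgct
MERTK: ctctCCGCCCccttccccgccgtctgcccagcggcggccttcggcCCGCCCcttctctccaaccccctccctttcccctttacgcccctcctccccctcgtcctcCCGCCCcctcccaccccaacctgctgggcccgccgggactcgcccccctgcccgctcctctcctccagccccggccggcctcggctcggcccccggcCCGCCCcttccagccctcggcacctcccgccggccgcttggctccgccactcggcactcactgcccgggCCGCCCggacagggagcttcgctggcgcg
GAS6: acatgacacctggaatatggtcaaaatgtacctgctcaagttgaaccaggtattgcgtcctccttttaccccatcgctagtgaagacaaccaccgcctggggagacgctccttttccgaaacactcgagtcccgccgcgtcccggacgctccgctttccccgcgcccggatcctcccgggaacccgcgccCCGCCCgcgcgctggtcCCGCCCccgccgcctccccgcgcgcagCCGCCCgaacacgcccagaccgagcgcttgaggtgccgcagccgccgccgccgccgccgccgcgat
PROS1: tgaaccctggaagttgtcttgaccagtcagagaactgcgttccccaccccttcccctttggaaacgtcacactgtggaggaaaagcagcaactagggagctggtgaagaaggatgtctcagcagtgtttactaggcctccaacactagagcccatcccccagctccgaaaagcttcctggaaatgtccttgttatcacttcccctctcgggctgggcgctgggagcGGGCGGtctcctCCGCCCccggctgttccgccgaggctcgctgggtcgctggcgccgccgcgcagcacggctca

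GC box letters occurred 2 times in the AXL window, 5 times in that of MERTK, 3 times in that of GAS6 and 2 times in that of PROS1, counted on both strands, and 45.0% of the 35116 RefSeq windows of this length hold at least 1. The letters of an AP-1 site (TGANTCA) were in none of these 4 windows, against 7.71% of all windows, and those of a TEAD site (GGAATG or CATTCC) were in none of them either, against 14.0% of all windows. TYRO3 has 2 listed starts, of which the first had 3 GC boxes and 1 AP-1 match and the second had no match to the 3 motifs. A second AXL start, further along the gene, had 1 TEAD match and no GC box. The GC box letters were thus present both in genes that were lower and in genes that were higher with shco4.

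AXL signal was several-fold lower in shco4 cells than in either other line. At probe set 202686_s_at the intensity was 1829, 2250 and 2449 in the 3 shco4 arrays, 8532, 8038 and 8312 in the shco2 arrays, and 9141, 9003 and 9928 in the scramble arrays. The highest shco4 array was far under the lowest array of any other line, and the shco2 arrays all lay slightly below the scramble arrays. At probe set 202685_s_at the intensity was 446, 541 and 471 with shco4, 1591, 1448 and 1403 with shco2, and 1661, 1579 and 1165 in scramble. Here too shco4 stood apart, while the shco2 and scramble arrays overlapped.

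On the log2 scale, AXL differed between shco4 and scramble by -2.11 ± 0.11 at 202686_s_at and by -1.58 ± 0.15 at 202685_s_at (difference of means ± SE from the model, n = 3 each), or 4.33-fold and 2.99-fold lower. The first of these was the 36th lowest difference and the second the 164th lowest of the 22215 probe sets in that comparison. AXL was chosen for being lower in this same comparison, so low ranks follow from that choice. Between shco2 and scramble the differences were -0.17 ± 0.11 and 0.03 ± 0.15, and they were -0.04 at 202686_s_at with quantile normalization and -0.13 at 202685_s_at without scramble replicate 3. Between shco4 and shco2 they were -1.94 and -1.61. Both probe sets therefore gave the order shco4 lowest, with shco2 and scramble close together, and their log2 intensities had a Pearson r of 0.969 over the 9 arrays, a description of arrays that fall into 3 lines.

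**Figure D1:**
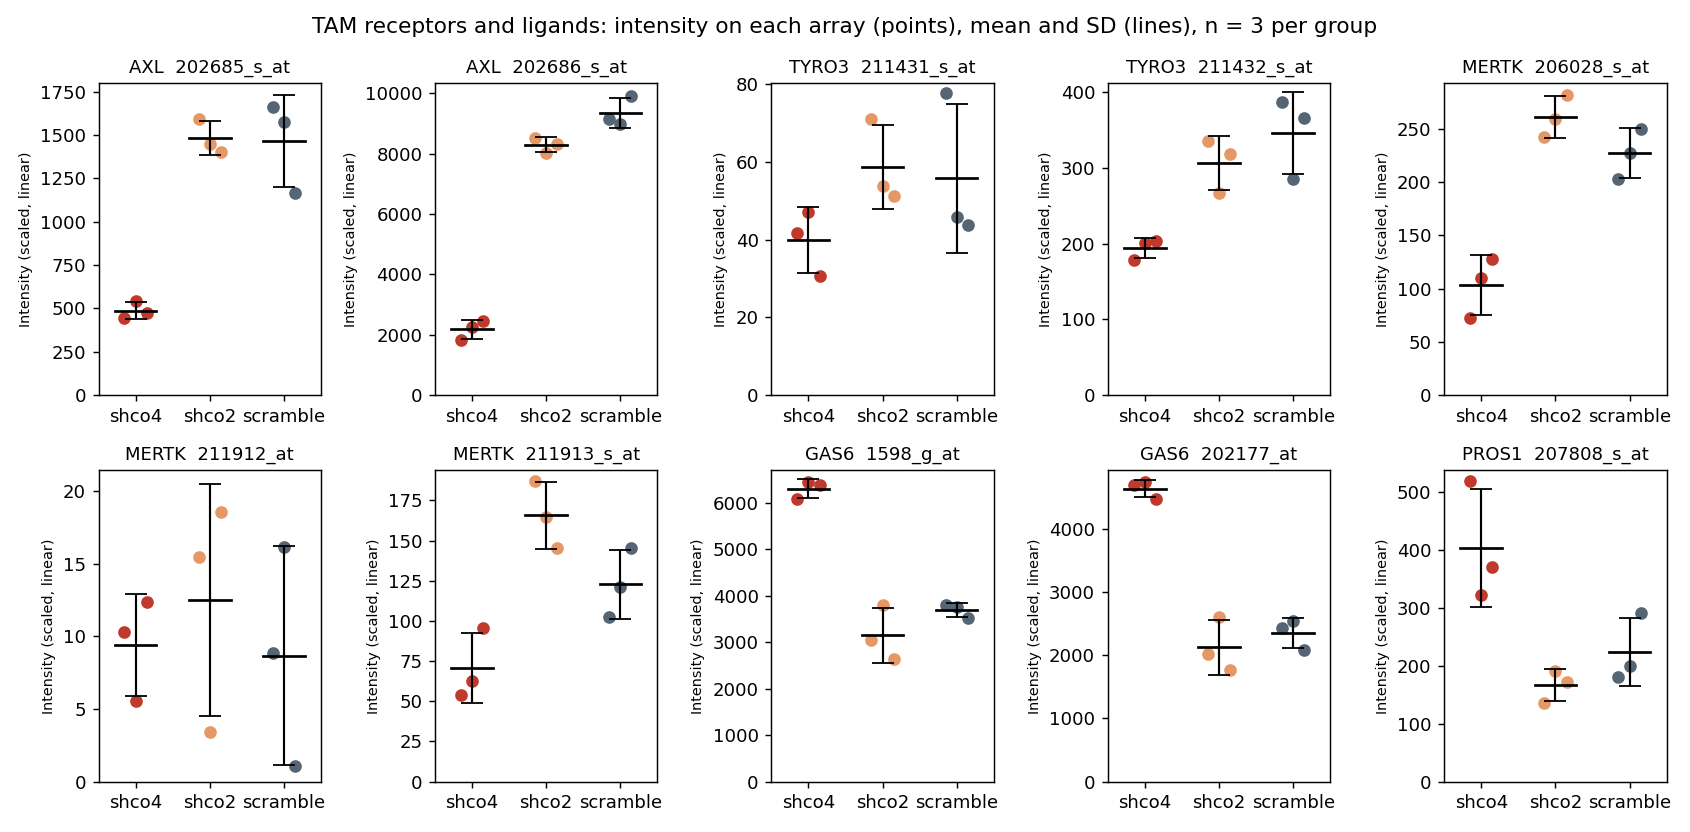
Scaled linear intensity of each of the 10 probe sets on the 9 arrays, with shco4, shco2 and scramble from left to right. Points are arrays, and the bars show mean and SD (n = 3 per group); the vertical axis starts at 0 in each panel. The shco4 points of AXL, of TYRO3 211432_s_at and of MERTK 206028_s_at lie below all others, and those of GAS6 and PROS1 lie above all others.

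The other receptors also had their lowest values with shco4. MERTK at probe set 206028_s_at read 72.6, 110 and 128 with shco4, 243, 259 and 282 with shco2, and 203, 228 and 251 in scramble. All shco4 arrays lay below all others, while the shco2 and scramble arrays overlapped. MERTK fell with shco4 at this probe set, with a difference from scramble of -1.17 ± 0.21, or 2.25-fold lower (limma, adjusted p = 0.0113), and the difference between shco4 and shco2 was -1.37 ± 0.21 (adjusted p = 0.00318). Between shco2 and scramble the difference was 0.20 and did not pass (adjusted p = 0.619, 95% interval -0.30 to 0.71; 0.13 without scramble replicate 1).

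A second MERTK probe set, 211913_s_at, read 53.9, 62.6 and 95.5 with shco4, 187, 165 and 145 with shco2, and 102, 121 and 145 in scramble. Its shco4 arrays were again the lowest, and the lowest shco2 array and the highest scramble array both read 145. The difference between shco4 and shco2 passed (-1.27 ± 0.24, adjusted p = 0.00778), whereas that between shco4 and scramble, -0.83 ± 0.24, did not (adjusted p = 0.0586). It passed without shco4 replicate 3 (adjusted p = 0.0173). With shco2 the difference from scramble was 0.44 ± 0.24 (adjusted p = 0.285). The third MERTK probe set, 211912_at, read 1.05 to 18.5 on the 9 arrays, with 7 of them below the floor of 16 used here, and gave no usable level.

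TYRO3 passed the test at 1 of its 2 probe sets. At 211432_s_at it read 179, 201 and 203 with shco4, 336, 267 and 318 with shco2, and 388, 285 and 367 in scramble. The shco4 arrays were the lowest, and shco2 and scramble overlapped. TYRO3 fell with shco4 at this probe set, with a difference from scramble of -0.82 ± 0.14, or 1.77-fold lower (adjusted p = 0.00965), and differed by -0.65 ± 0.14 between shco4 and shco2 (adjusted p = 0.0129). With shco2 it differed from scramble by -0.17 (adjusted p = 0.509, 95% interval -0.51 to 0.17). That value was -0.30 without scramble replicate 2, -0.08 without scramble replicate 1 and -0.07 without shco2 replicate 2, and passed in none of these. The dim probe set 211431_s_at, at 30.5 to 47.2 with shco4, 51.2 to 71.2 with shco2 and 43.6 to 77.8 in scramble, overlapped between shco4 and scramble and passed in none of the comparisons, with adjusted p = 0.354 between shco4 and scramble, 0.951 between shco2 and scramble and 0.198 between shco4 and shco2. RefSeq lists a transcribed pseudogene, TYRO3P, and the files do not show whether its RNA binds these probes.

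The ligand GAS6 ran the other way. At probe set 1598_g_at its intensity was 6076, 6456 and 6376 with shco4, 3039, 3791 and 2628 with shco2, and 3807, 3749 and 3512 in scramble. The shco4 arrays were tightly grouped above all others, while shco2 spread from below scramble up to its level. GAS6 rose with shco4 by 0.77 ± 0.13 against scramble, or 1.71-fold (adjusted p = 0.00802), and was higher than with shco2 by 1.02 ± 0.13, or 2.02-fold (adjusted p = 0.00139). At probe set 202177_at it read 4689, 4739 and 4477 with shco4, 2016, 2598 and 1759 with shco2, and 2437, 2539 and 2083 in scramble. Again the shco4 arrays were the highest and the other lines overlapped.

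At that second probe set GAS6 rose with shco4 by 0.98 ± 0.15 against scramble, or 1.98-fold (adjusted p = 0.00607), and was higher than with shco2 by 1.14 ± 0.15 (adjusted p = 0.00164). Between shco2 and scramble, the differences of -0.24 and -0.16 did not pass (adjusted p = 0.258 and 0.561). Single arrays moved both, in either direction. Without shco2 replicate 2, the highest of its group at both probe sets, they were -0.38 (adjusted p = 0.0229) and -0.32 (adjusted p = 0.106). Without shco2 replicate 3, the lowest of its group at both, they were -0.12 (adjusted p = 0.549) and -0.03 (adjusted p = 1). At 202177_at the difference was also -0.10 without scramble replicate 2 and -0.25 without scramble replicate 3.

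PROS1, which encodes protein S, was also highest with shco4. Its probe set 207808_s_at read 518, 322 and 369 with shco4, 136, 191 and 172 with shco2, and 181, 199 and 291 in scramble. The shco4 arrays lay above all others with a wide spread, and shco2 and scramble overlapped. PROS1 was higher with shco4 than with shco2 by 1.26 ± 0.25, or 2.40-fold (adjusted p = 0.0103). The difference between shco4 and scramble, 0.85 ± 0.25, did not pass (adjusted p = 0.0646, 95% interval 0.24 to 1.46). It passed with quantile normalization (adjusted p = 0.0484), with median centring (0.0306), with dim probe sets left out (0.0133) and without scramble replicate 3 (0.0425), and lay between 0.0133 and 0.176 over all alternatives. With shco2 the difference from scramble was -0.41 ± 0.25 (adjusted p = 0.362), and it was -0.20 without scramble replicate 3 and -0.27 without shco2 replicate 1. RefSeq lists a pseudogene, PROS2P, and whether its RNA binds these probes is not shown by the files.

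**Figure D2:**
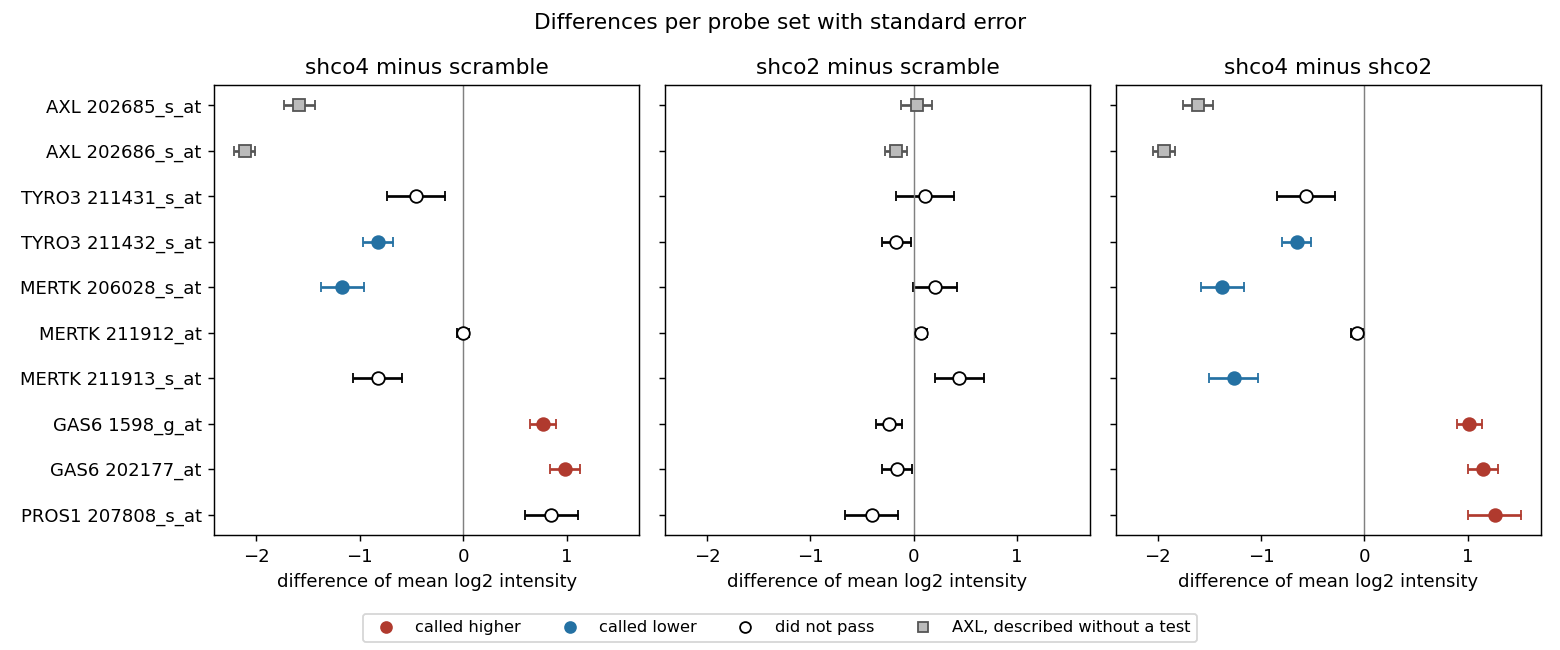
Difference of mean log2 intensity (horizontal axis) with its standard error for each probe set, in the comparisons of shco4 with scramble, shco2 with scramble and shco4 with shco2; circles are filled where the adjusted p was under 0.05, and grey squares are AXL, which has no test. With shco4 the receptors sit left of 0, except MERTK at 211912_at, which is near 0, and the ligands right of 0, from -2.11 for AXL to 0.98 for GAS6, while with shco2 every point lies between -0.41 and 0.44.

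In shco4 cells the differences from scramble were negative for the receptors and positive for the ligands, with MERTK at 211912_at near 0. Of the 8 tested probe sets, from 4 genes, 2 rose and 2 fell with shco4 against scramble, and 4 did not pass. In the same comparison 18.8% of all probe sets were called, 9.05% up and 9.75% down. Between shco4 and shco2, 3 were called higher and 3 lower with shco4, against 31.0% of all probe sets, 14.9% up and 16.1% down. With shco2 against scramble 0 of the 8 were called by limma and 0 had an unadjusted p under 0.05, where 20.7% of all probe sets were called, 10.7% up and 9.95% down. The comparisons share arrays, and probe sets of 1 gene are not independent. The median over all probe sets was 0 in each comparison. The shares called are also over all probe sets, dim ones included, of which 11.8% lay at the floor on all arrays.

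Over the 9 arrays, log2 intensity had a Pearson r with the AXL mean of 0.938, 0.844 and 0.234 for MERTK at 206028_s_at, 211913_s_at and 211912_at, and of 0.921 and 0.652 for TYRO3 at 211432_s_at and 211431_s_at. It was -0.934 and -0.912 for GAS6 at 202177_at and 1598_g_at, and -0.878 for PROS1. These values describe 3 lines of 3 arrays, and all come from the same arrays. Among 2982 other probe sets with clear signal and a range of at least 1 log2 unit, the 6 most like AXL were PNMA8A (r = 0.995), FANCI, a DNA crosslink repair protein (0.995), TOMM22, a mitochondrial import receptor (0.994), VPS35, a retromer subunit (0.992), NUP43, a nuclear pore protein (0.991), and LIG1, a DNA ligase (0.990). Their differences between shco4 and scramble ranged from -3.68 for NUP43 to -0.87 for VPS35. The 3 most opposed were NACC2 (r = -0.997), the linker histone gene H1-2 (-0.995) and ZNF302 (-0.995), of which the histone gene had the widest difference, 2.83.

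Factors reported to act at the AXL gene were examined next, as background to its level. Of 17 with a probe set, 4 fell and 2 rose with shco4, with a median of -0.24 against scramble, and 1 fell and 2 rose with shco2, with a median of -0.03, where 18.8% and 20.7% of all probe sets were called. The 6 calls with shco4 became 2 without scramble replicate 2 or in the fit to the 6 arrays compared. They became 3 without scramble replicate 1 or shco4 replicate 2. Here and in the lists below the brightest probe set stood for a gene, whereas the shares of all probe sets called include dim ones. FOSL1, an AP-1 subunit, averaged 1762 ± 439 with shco4, 4191 ± 645 with shco2 and 4534 ± 162 in scramble (SD, n = 3 each), and fell with shco4 (log2 -1.39 ± 0.19, adjusted p = 0.00468). EPAS1, a hypoxia-inducible factor subunit, fell with shco4 (log2 -1.03, adjusted p = 0.00453) and differed by -0.35 with shco2. The others that fell were YAP1, a Hippo pathway coactivator (-0.81), and WWTR1, its relative TAZ (-1.32). The YAP1 call ended without scramble replicate 2 (adjusted p = 0.0514), and that of WWTR1 was lost in 6 of 9 fits that each omit an array (up to 0.105 when scramble replicate 2 is omitted).

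The AP-1 genes JUNB (0.90) and JUND (0.58) were the ones that rose with shco4, and these calls were lost in 7 and 4 of the 9 fits that each omit an array (adjusted p up to 0.0966 when shco4 replicate 1 is omitted, and up to 0.0665 when scramble replicate 1 is). With shco2, TEAD4, a partner of YAP1, rose by 1.13 ± 0.11 (adjusted p = 0.00123), TEAD1 rose by 1.37 (adjusted p = 0.0162, but 0.0569 without shco2 replicate 1) and SNAI2, a repressor of epithelial genes, fell (log2 -0.83 ± 0.07, adjusted p = 0.00066). YAP1, WWTR1, JUNB, JUND and TEAD1, and CALU below, were named after their values were seen.

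**Figure D3:**
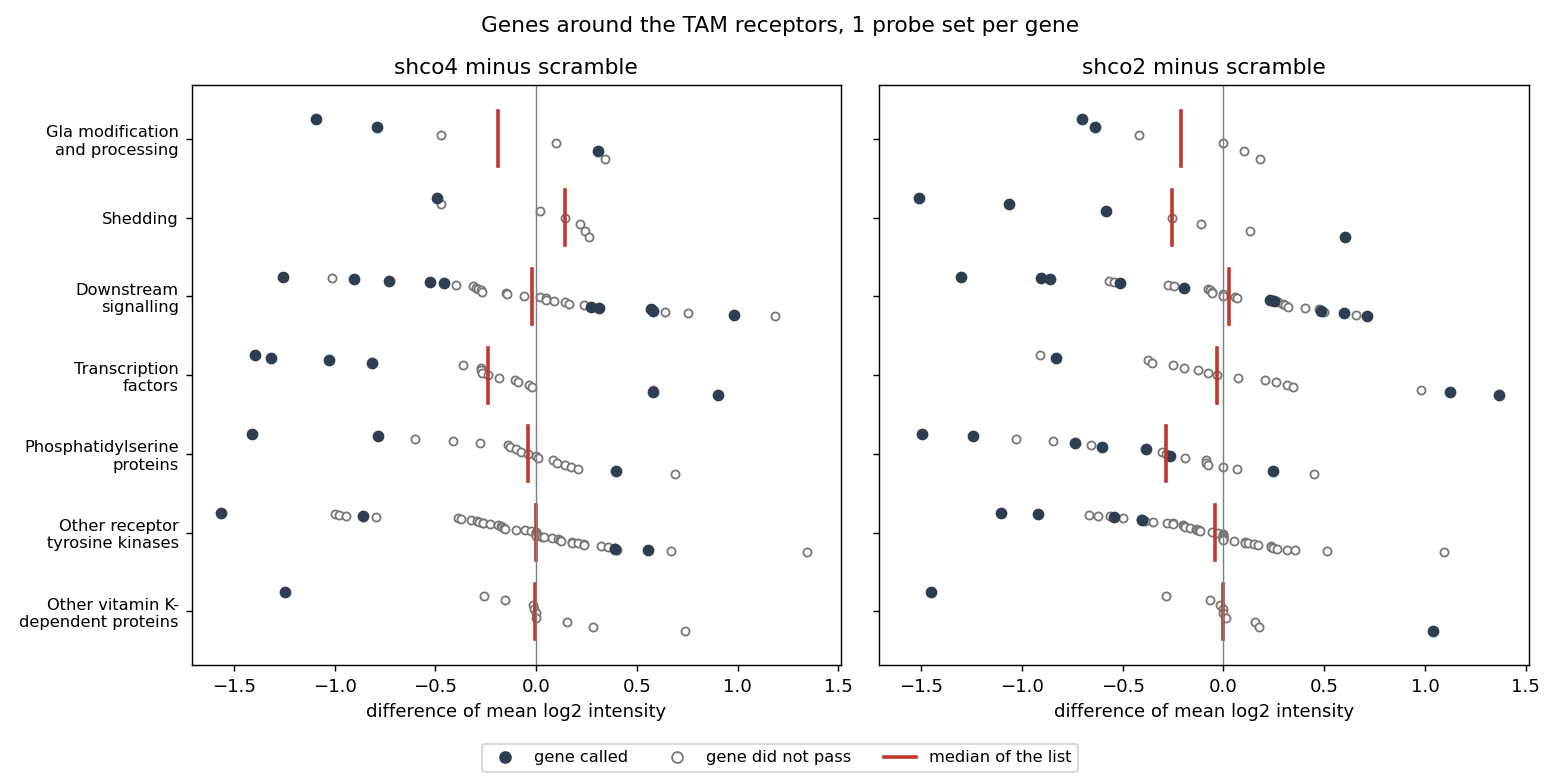
Difference of mean log2 intensity from scramble (horizontal axis) for the genes of 7 lists around the TAM receptors, with shco4 on the left and shco2 on the right. Filled points had an adjusted p under 0.05, open points did not, and red bars are list medians, which lie between -0.24 and 0.14 with shco4 and between -0.29 and 0.03 with shco2.

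Genes tied to the gamma-carboxylation and processing of GAS6 and protein S, not all of them enzymes, were followed beside the ligands. Of 6 such genes with a probe set, 2 fell and 1, CALU, rose with shco4, 2 fell with shco2, and the medians were -0.19 and -0.21, against 18.8% and 20.7% of all probe sets called. The 2 calls with shco2, GGCX and NQO1, became 0 when any 1 of the scramble or shco2 arrays was omitted and 4 with the replicate block, and the 3 with shco4 became 1 without scramble replicate 2. VKORC1, which recycles vitamin K, averaged 980 ± 104 with shco4, 1556 ± 66.1 with shco2 and 2102 ± 403 in scramble, and fell with shco4 (log2 -1.09 ± 0.14, adjusted p = 0.00378), also against shco2 (-0.67, adjusted p = 0.012). FURIN, a propeptide protease, fell with shco4 (log2 -0.79, adjusted p = 0.0161, but 0.0578 without scramble replicate 2 and 0.0534 without shco4 replicate 1). The carboxylase GGCX fell with shco2 (log2 -0.70, adjusted p = 0.0246), a call lost in 6 of the 9 such fits (up to 0.0788 when scramble replicate 1 is omitted), and with shco4 its difference was -0.47 (adjusted p = 0.0935). That of CALU was lost in 6 (up to 0.0982 when shco4 replicate 1 is omitted). NQO1, a quinone reductase, differed by 0.34 with shco4 and -0.64 with shco2 (adjusted p = 0.0413, a call lost in 7 of the 9 fits, up to 0.123 when shco2 replicate 2 is omitted) and was higher with shco4 than with shco2 by 0.98 (adjusted p = 0.00532).

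The proteases ADAM10 and ADAM17 shed AXL and MERTK from the cell surface. Of 7 genes for such proteases and their inhibitors, 1 rose and 3 fell with shco2, and 0 rose and 1 fell with shco4, against 20.7% and 18.8% of all probe sets called. The count with shco2 was 4 in every alternative run, and that with shco4 lay between 0 and 2. ADAM10 averaged 4123 ± 225 with shco4, 1668 ± 181 with shco2 and 3484 ± 271 in scramble, and fell with shco2 (log2 -1.07 ± 0.10, adjusted p = 0.000999). ADAM17 rose with shco2 by 0.60 (adjusted p = 0.00778). The inhibitors TIMP3 and TIMP1 fell with shco2 (log2 -1.51 and -0.58, adjusted p = 0.000634 and 0.00549). With shco4 ADAM10 and ADAM17 differed from scramble by 0.24 and 0.14 and did not pass (adjusted p = 0.143 and 0.434), and TIMP3 differed by -0.49 (adjusted p = 0.0331), a call lost in 6 of the 9 such fits (up to 0.0883 when shco4 replicate 3 is omitted).

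Among 30 adaptors, kinases and regulators that act downstream of TAM receptors, 5 rose and 5 fell with shco4, and 5 rose and 5 fell with shco2, with medians of -0.02 and 0.03, against 18.8% and 20.7% of all probe sets called. The 10 calls with shco4 became 4 without scramble replicate 2 and 6 without shco4 replicate 1, and the 10 with shco2 became 5 without scramble replicate 3 and 6 without scramble replicate 1 or shco2 replicate 3. Between shco4 and shco2, 6 were higher and 6 lower. The widest difference between these lines was that of TNS2, the AXL-binding protein C1-TEN, which averaged 483 ± 129 with shco4, 96.6 ± 8.59 with shco2 and 241 ± 50.7 in scramble. It fell with shco2 (log2 -1.30 ± 0.24, adjusted p = 0.0113) and was higher with shco4 than with shco2 by 2.29 (adjusted p = 0.000773). Its difference of 0.98 between shco4 and scramble passed (adjusted p = 0.034), a call lost in 7 of the 9 such fits (up to 0.107 when scramble replicate 2 is omitted). PTK2, the focal adhesion kinase, fell with shco2 (log2 -0.91 ± 0.08, adjusted p = 0.00103). PIK3CB, a catalytic subunit of PI3-kinase, was higher with shco4 than with shco2 by 1.09 (adjusted p = 0.000948). Against scramble it rose with shco4 by 0.58 (adjusted p = 0.0202) and fell with shco2 (log2 -0.51, adjusted p = 0.0282). These 2 calls were lost in 3 and 5 of the 9 such fits (up to 0.0679 and 0.0903). RAC1, a small GTPase, differed from scramble by 0.27 with shco4 and -0.19 with shco2, and neither call held with quantile normalization (adjusted p = 0.0763 and 0.390).

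A further list held genes for phosphatidylserine exposure and its control, and for other phosphatidylserine receptors and bridging proteins. Of its 19 genes with a probe set, 1 rose and 2 fell with shco4 and 1 rose and 6 fell with shco2, against 18.8% and 20.7% of all probe sets called. The 7 calls with shco2 became 3 without scramble replicate 1 and 4 without shco2 replicate 1 or replicate 3. MFGE8, which like GAS6 links phosphatidylserine to a receptor but does so through integrins, averaged 113 ± 29.0 with shco4, 405 ± 64.8 with shco2 and 296 ± 34.7 in scramble. It fell with shco4 (log2 -1.41 ± 0.20, adjusted p = 0.00548), the direction opposite to GAS6. ITGB5, the beta chain of an integrin that MFGE8 binds, fell with shco4 and with shco2 (log2 -0.78 and -0.74, adjusted p = 0.00197 and 0.00204). LGALS3, a galectin that binds MERTK, rose with shco4 by 0.40 ± 0.07 (adjusted p = 0.0127). ATP8A1, a lipid flippase, was dim, at 83.8 ± 11.6 with shco4, 20.1 ± 10.3 with shco2 and 52.1 ± 9.06 in scramble. Its shco2 values lie near the floor of 16, and the difference between shco4 and shco2 was 1.93 with that floor but 0.38 with a floor of 64, so its size is not settled.

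Of 46 receptor tyrosine kinases outside the TAM family with a probe set, 2 rose and 2 fell with shco4 and 0 rose and 4 fell with shco2, and 5 lay at the floor on every array, where 18.8% and 20.7% of all probe sets were called. With the replicate block 8 were called with shco4 and 8 with shco2, and the 4 with shco2 became 2 without scramble replicate 2 or shco2 replicate 2. ERBB3, a partner of ERBB2, fell with shco4 (log2 -0.86 ± 0.07, adjusted p = 0.000894) at a low level, 62.5 ± 4.48 against 113 ± 4.96 in scramble. ROR1, a Wnt5a receptor, rose with shco4 by 0.56 (adjusted p = 0.0078). EGFR fell with shco2 (log2 -0.92 ± 0.10, adjusted p = 0.00164) and differed by -0.28 with shco4 (adjusted p = 0.0976), and INSR, the insulin receptor, fell with shco2 (log2 -0.41, adjusted p = 0.013). Of 10 other vitamin K-dependent proteins, 0 rose and 1 fell with shco4, and 1 rose and 1 fell with shco2, against 18.8% and 20.7% of all probe sets called. The count with shco4 was 0 to 2 over the alternatives, and that with shco2 was 1 to 2, with 1 without scramble replicate 3, shco2 replicate 1 or shco2 replicate 3. PRRG1, a transmembrane Gla protein, fell with shco2 (log2 -1.45 ± 0.17, adjusted p = 0.00235). PRRG4, another of these, averaged 35.2 ± 7.60 with shco4, 169 ± 18.0 with shco2 and 83.6 ± 19.2 in scramble, and was lower with shco4 than with shco2, by -2.29 (adjusted p = 0.00064), or -1.40 with a floor of 64.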

How the data were processed

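Gene expression was measured on 1 Affymetrix 3′ array per sample, from 200 ng of total RNA per the labels' protocols. The deposited values are linear intensities, which the authors had scaled: a trimmed mean (2% off each end) was close to 500 on every array, as tested on the values. Software and summary method: not given in the sources used here. Values under a floor of 16 were raised to it before log2. Without the 62 control probe sets 22215 remained, of which 2611 (11.8%) lay at the floor on all arrays.

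Group means over all 9 arrays were compared in limma 3.58.1 (R 4.3.3; lmFit, eBayes), with two-sided tests, Benjamini-Hochberg adjustment over 22215 probe sets and calls at an adjusted p under 0.05. The model was also run on simulated data with known shifts and independent arrays. That check set no limit on false calls and does not bear on correlated replicates. For lists, the probe set with the highest mean stood for a gene. The members, the 7 lists and the tests were chosen with earlier results of these data known. Named are all members, up to 4 genes per list with the smallest p among those called in any comparison, and the 6 highest and 3 lowest Pearson r with AXL, at a mean log2 intensity of at least 8 and a range of at least 1. The number of arrays limits the precision.

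Deviations from the group mean were compared between same-numbered arrays. For shco4 with scramble their correlations were 0.133 to 0.236, and every pair exceeded 0.1, the rule used for pairing. The main fit still left the replicate numbers out, so its tests are unpaired, and the values given are from it unless the replicate block is named. For shco2 with scramble the correlations were 0.0567 to 0.289, and for shco4 with shco2 0.0576 to 0.214, so there the rule was not met.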

Additional observations from a re-analysis of the deposited data

Results flagged for a closer look

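The change of a gene with shco4 and its change with shco2 differed by the direct test between shco4 and shco2 (limma, adjusted p under 0.05) at 6 of the 8 tested probe sets, where 31.0% of all probe sets were called. That share includes dim probe sets, whereas 5 of the 8 had a mean log2 intensity of at least 7. The 8 come from 4 genes, and probe sets of 1 gene are not independent. On the log2 scale shco4 minus shco2 was -0.65 for TYRO3 at 211432_s_at, -1.37 and -1.27 for MERTK at 206028_s_at and 211913_s_at, 1.02 and 1.14 for GAS6 at 1598_g_at and 202177_at, and 1.26 for PROS1. These genes are each measured in the same 9 arrays, and no cause was tested.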

How the results depend on the processing

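The alternatives were floors of 64 and 1, quantile normalization, median centring, only probe sets with a mean log2 intensity of at least 7, an intensity trend with a robust prior, the replicate block, a fit to the 6 arrays compared, and leaving out each array. The AXL differences moved by less than the spread between replicates in all 102 repeats, and the difference between shco4 and scramble at 202686_s_at lay between -2.20 and -1.99. Many of these repeats could not move an AXL difference. AXL lies above both floors and passes the filter, and the prior, the replicate block and the 6-array fit leave the group means unchanged. Omitting an array of the line not compared also leaves them unchanged. Over all the alternatives no call of TYRO3, MERTK, GAS6 or PROS1 was lost where the probe set was tested, and the filter left 5 of the 8 tested probe sets. With 1 array left out, the number of all probe sets called between shco4 and scramble was 2760 (without scramble replicate 2) to 3938, against 4178, and the number of tested probe sets called between shco2 and scramble was 0 to 1. At the dim TYRO3 probe set 211431_s_at the difference between shco2 and scramble, 0.11, was -0.043 with a floor of 64 and -0.040 to 0.38 with 1 array left out. At the MERTK probe set near the floor, 211912_at, it was -0.0035 to 0.10 with 1 array left out, and between shco4 and scramble it was 0.75 with a floor of 1 and 0.017 with median centring. With the replicate block no call of a tested probe set changed: MERTK at 206028_s_at had an adjusted p of 0.00808 between shco4 and scramble, and 4913 of all probe sets were called there. Among list genes it ended the calls of SRC (adjusted p = 0.0632) and EPHA2 (0.0739) between shco4 and scramble. Of 1753 repeats of the 104 called differences of list genes, added after seeing the data, 276 (15.7%) lost the call, and 53 of 357 repeated list counts moved by over 1.5 times.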
